A study of Mus musculus with 24 samples.

Results

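Among the 8 carnitine shuttle genes, Slc22a5 encodes the plasma membrane carnitine transporter. Crat encodes an enzyme that transfers acetyl and other short acyl groups between CoA and carnitine. The products of the other genes carry long-chain fatty acids into mitochondria or set the malonyl-CoA that restrains this step. The genes were taken by symbol from the gene column of the deposited count files, and all 8 were found among the 24421 genes listed there. All 8 also passed the filter on low counts, which kept 15804 genes. Messenger RNA was measured by polyA RNA-seq in 24 heart libraries of male, chow-fed mice aged 14 weeks on a mixed background, mostly C57BL/6N with some 129. The mice carried mutant alleles of Acadl, which encodes long-chain acyl-CoA dehydrogenase, and of Acadvl, which encodes very long-chain acyl-CoA dehydrogenase. Both enzymes begin the breakdown of fatty acids inside mitochondria, so the comparisons ask how the genes of fatty acid entry stood when the next step was disrupted.

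The 6 genotypes were Acadl KO / Acadvl wt (4 libraries), Acadl KO / Acadvl Het (5), Acadl Het / Acadvl KO (4), Acadl Het / Acadvl Het (3), Acadl Het / Acadvl wt (4) and Acadl wt / Acadvl wt (4, called wild type below). The sources used here do not say how the mutant alleles were made. The controls of the Acadvl KO comparison carry Acadl Het on both sides, so they are not wild type. Whether each library is a mouse of its own is not stated, so p-values reflect the scatter among these libraries, which may in part be technical.

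Long-chain fatty acids cannot cross the inner mitochondrial membrane as CoA esters. Carnitine palmitoyltransferase 1 on the outer membrane moves the acyl group to carnitine, a translocase carries the acylcarnitine across the inner membrane, and carnitine palmitoyltransferase 2 returns the acyl group to CoA in the matrix. Malonyl-CoA inhibits the first of these enzymes, and the heart, which burns mostly fatty acids, both makes and removes malonyl-CoA.

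Each library held between 34320838 and 51743114 counts, and the genes' own counts ran from 1413 for Slc22a5 to 73125 for Cpt1b. RNA isolation batch 1 held 9 libraries and batch 2 held 15, each with all 6 genotypes. Acadl, which should check the labels, was at 1894 ± 167 CPM in Acadl KO / Acadvl wt samples and 1358 ± 42 CPM in wild type (CPM, counts scaled to a common library size; SD, n = 4 each). The level goes against the label, and gene counts do not resolve exons, so the libraries are called labelled Acadl KO, and Acadl Het rests on the label too. Acadvl followed its label, at 599 ± 121 CPM in Acadl Het / Acadvl KO samples and 1632 ± 82.5 CPM in Acadl Het / Acadvl wt samples (SD, n = 4 each). The 12 cardiomyocyte markers, such as Myh6 and Tnnt2, summed to 82936 to 105380 CPM across all libraries. In Acadl Het / Acadvl Het replicate 1 the ribosomal RNA precursor Rn45s took 17.258% of counts, against 0.558% in the next library. Alb, a hepatocyte gene, was above 10 CPM in 6 libraries. These were all 3 of Acadl Het / Acadvl Het (159, 19.8 and 39.7 CPM), Acadl KO / Acadvl wt replicates 2 and 3 (61.7 and 13.6 CPM) and Acadl Het / Acadvl KO replicate 2 (36.8 CPM).

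Per length, the muscle form of the outer-membrane enzyme, Cpt1b, was the most abundant of the 8 transcripts. It averaged 469 RPKM (CPM per kilobase of counted exon) over the 6 genotype means. Crat at 166, Slc25a20 at 153, Cpt2 at 152, Mlycd at 142 and Acacb at 129 RPKM lay close together, and the ranges of all 5 over single libraries overlapped. Cpt1a, the liver form of the outer-membrane enzyme, stood at 23.6 RPKM and the carnitine transporter Slc22a5 at 14.2 RPKM. The ratio of Cpt1b to Cpt1a per length was 22.5 ± 2.12 in Acadl KO / Acadvl wt samples and 17.6 ± 1.47 in wild type (SD, n = 4 each). Cpt1b shares 2744 exon bases with ChkbCpt1b, an entry for transcripts that read through from Chkb. The counting gave a shared read to both entries, so the Cpt1b level would include any read-through RNA.

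**Figure D1:**
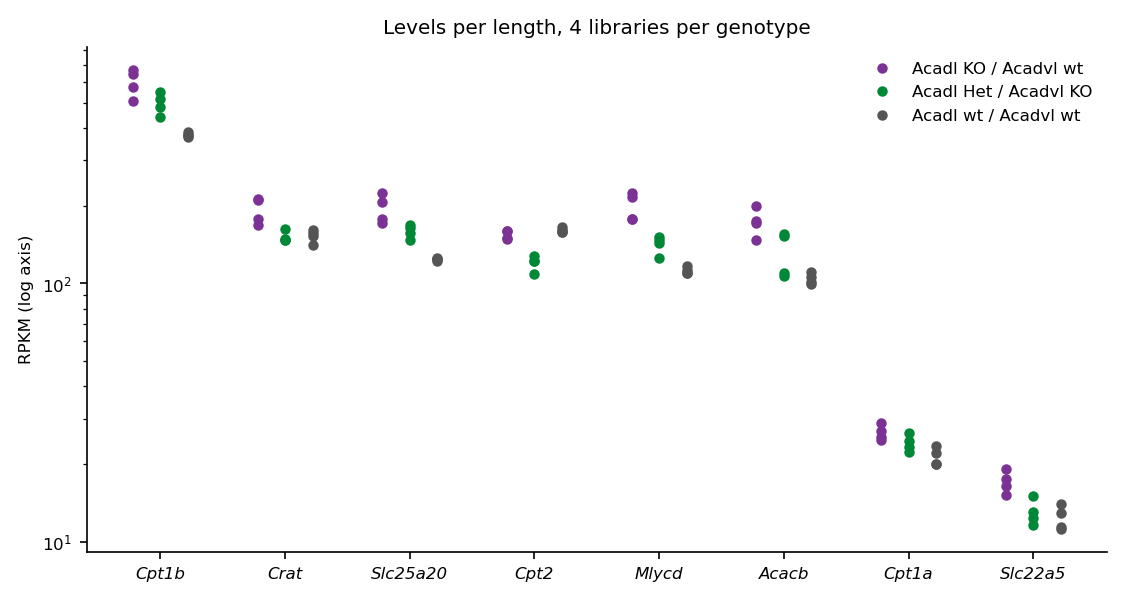
Levels per length of the 8 genes in RPKM (y, log axis) for Acadl KO / Acadvl wt, Acadl Het / Acadvl KO and wild-type samples, with 1 point per library (4 per genotype). Cpt1b stands highest and Cpt1a and Slc22a5 lowest in all 3 genotypes, and Cpt2 is lower in all 4 Acadl Het / Acadvl KO libraries than in any library of the other 2 genotypes shown.

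The 8 genes lie on 8 different chromosomes, so no 2 of them are neighbours. In mm10 coordinates from the count files, Slc22a5 spans 53864542 to 53891703 on chromosome 11, minus strand. The mutated gene Acadvl lies on the same chromosome, at 70010183 to 70015428, and what this means for Slc22a5 was not tested. Cpt1a spans 3323301 to 3385733 on chromosome 19, plus strand, and Cpt1b 89416405 to 89425862 on chromosome 15, minus strand. Slc25a20 spans 108662098 to 108684641 on chromosome 9, plus strand, and Cpt2 107903982 to 107923589 on chromosome 4, minus strand. Crat spans 30400476 to 30415748 on chromosome 2, minus strand. It shares 54 exon bases with Dolpp1 on the opposite strand, which had 224 to 450 counts per library, and counting without strand cannot tell these reads apart. Acacb spans 114165518 to 114250758 on chromosome 5 and Mlycd 119394892 to 119411088 on chromosome 8, both on the plus strand.

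In samples labelled Acadl KO with Acadvl wt, 7 of the 8 genes were higher than in wild type and 0 were lower at an adjusted p under 0.05 (edgeR quasi-likelihood test, Benjamini-Hochberg over all genes), where 19.6% of all genes tested were higher and 17.6% lower. Both malonyl-CoA enzymes, the muscle outer-membrane enzyme and the translocase rose the most, 1.56-fold to 1.75-fold. Cpt2, the last enzyme of the shuttle, was the exception. The median log2 change was 0.55 over the 8 genes and -0.02 over all genes tested. The libraries of both genotypes did not overlap for the same 7 genes, a pattern found upward in 18.1% of all genes. In bulk tissue, a change in the cells present and a change in RNA per cell cannot be told apart.

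The plasma membrane carnitine transporter Slc22a5 stood at 54.46, 59.47, 47.32 and 51.21 CPM in Acadl KO / Acadvl wt samples and 34.64, 43.88, 35.44 and 40.26 CPM in wild type. The lowest labelled Acadl KO library lay above the highest wild-type library. The log2 change was 0.46 (SE 0.11, adjusted p = 0.003001).

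At the outer membrane, Cpt1b was at 1864, 1937, 1468 and 1670 CPM in Acadl KO / Acadvl wt samples and 1087, 1115, 1085 and 1066 CPM in wild type. The wild-type values were almost level, while the labelled Acadl KO values spread widely and all stood above them. Cpt1b rose by 0.66 on the log2 scale (SE 0.09, adjusted p = 1.325e-05), and the read-through entry ChkbCpt1b, which holds the same reads, by 0.64. Cpt1a was at 109.7, 124.9, 107.3 and 115.5 CPM in Acadl KO / Acadvl wt samples and 85.98, 95.52, 86.51 and 101.4 CPM in wild type. The 2 sets came close but did not overlap, and Cpt1a rose by 0.32 (SE 0.1, adjusted p = 0.01716). Without wild-type replicate 1 the change in Cpt1a was 0.29 (adjusted p = 0.05985), and without the libraries above 10 CPM of Alb it was 0.28 (adjusted p = 0.1162), so its call rests on few libraries.

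The translocase gene Slc25a20 was at 368.2, 396.8, 315.5 and 305.1 CPM in Acadl KO / Acadvl wt samples and 220.5, 217.9, 222 and 220.9 CPM in wild type. Wild-type samples were nearly identical, and the labelled Acadl KO libraries all lay higher, by 0.64 on the log2 scale (SE 0.1, adjusted p = 3.49e-05). Cpt2 was at 376.8, 376.2, 352.6 and 348.1 CPM in Acadl KO / Acadvl wt samples and 378.2, 388.9, 372.1 and 372 CPM in wild type. The 2 sets overlapped, and the log2 change was -0.06 (SE 0.1, adjusted p = 0.6789). Crat, which transfers acetyl and other short acyl groups between CoA and carnitine, was at 927.7, 930.7, 739 and 782.4 CPM in Acadl KO / Acadvl wt samples and 619.1, 705.9, 668.8 and 687.6 CPM in wild type. The sets did not overlap, and Crat rose by 0.33 (SE 0.1, adjusted p = 0.01135).

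Both enzymes of malonyl-CoA turnover rose. Acacb, the acetyl-CoA carboxylase that makes malonyl-CoA at the mitochondrial surface, was at 1485, 1694, 1249 and 1463 CPM in Acadl KO / Acadvl wt samples and 846.6, 859.6, 938.6 and 897.4 CPM in wild type, a log2 rise of 0.72 (SE 0.11, adjusted p = 3.683e-05). Mlycd, the decarboxylase that removes malonyl-CoA, was at 468.2, 452.2, 372.2 and 371.8 CPM in Acadl KO / Acadvl wt samples and 231.2, 231.3, 246.2 and 236.5 CPM in wild type. All labelled Acadl KO libraries stood above all wild-type libraries for both genes. Mlycd rose by 0.81 (SE 0.08, adjusted p = 8.66e-07), the largest change of the 8 genes in this comparison.

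**Figure D2:**
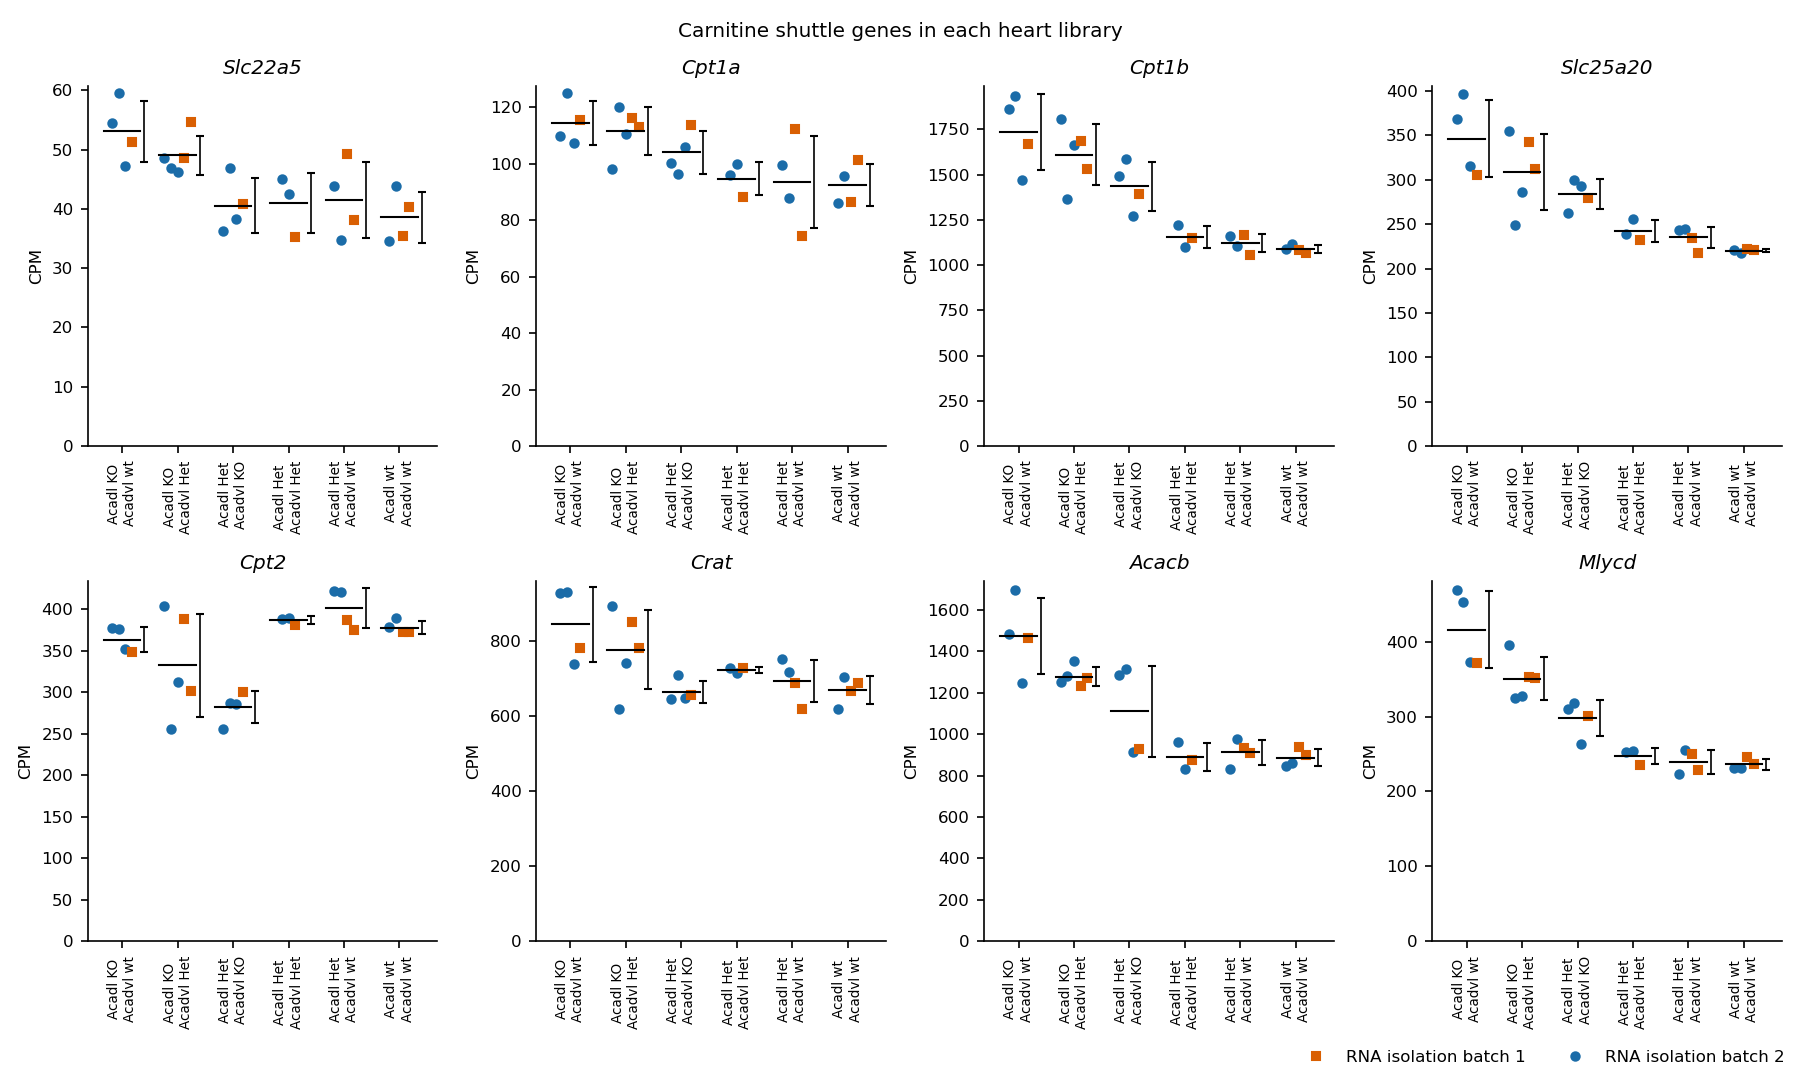
Level of each gene in CPM (y, from 0) in every library, by genotype (x), with squares for RNA isolation batch 1 and circles for batch 2, a line at the mean and a bar of 1 SD beside it. The mean is highest in Acadl KO / Acadvl wt for 7 of the 8 genes, and Cpt2 is lowest in Acadl Het / Acadvl KO samples, at 256 to 301 CPM.

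Within RNA isolation batch 2 (3 libraries labelled Acadl KO, 2 wild type), the change was 0.90 for Mlycd, 0.80 for Acacb, 0.72 for Slc25a20, 0.68 for Cpt1b, 0.46 for Slc22a5 and 0.34 for Cpt1a, all with adjusted p under 0.05, as had 4511 of all 15791 genes. Crat there was 0.39 (adjusted p = 0.05259) and Cpt2 -0.05. Batch 1 held 1 library labelled Acadl KO and 2 of wild type, whose spread is assumed to be like that of the other genotypes. Its changes had the same sign for all 8 genes, 0.68 for Acacb, 0.64 for Cpt1b, 0.63 for Mlycd and 0.47 for Slc25a20 among them, and Acacb alone passed the threshold (adjusted p = 0.04967), as did 86 of all 16109 genes.

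The comparison of all 9 libraries labelled Acadl KO with 7 labelled Acadl Het balances the Acadvl label, with Acadvl wt and Acadvl Het on both sides, and shares the Acadl KO / Acadvl wt libraries with the comparison above. Here 7 of the 8 genes were higher and 1, Cpt2, was lower, where 26.7% of all genes tested were higher and 27.9% lower. The median log2 change was 0.38 over the 8 genes and -0.02 over all genes. Cpt1b, Acacb and Mlycd separated the sides without overlap, as did 10.4% of all genes upward.

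Mlycd had a lowest, median and highest value of 325, 372 and 468 CPM over the 9 samples labelled Acadl KO and 224, 250 and 256 CPM over the 7 labelled Acadl Het. Every library labelled Acadl KO stood above every one of these labelled Acadl Het, and the log2 rise was 0.65 (SE 0.06, adjusted p = 4.257e-08). Acacb ran from 1233 to 1694 CPM in samples labelled Acadl KO and from 829 to 975 CPM in those labelled Acadl Het, a log2 rise of 0.60 (SE 0.08, adjusted p = 2.087e-06). Cpt1b ran from 1365 to 1937 CPM in samples labelled Acadl KO and from 1058 to 1219 CPM in those labelled Acadl Het, a log2 rise of 0.55 (SE 0.06, adjusted p = 6.7e-07). Slc25a20 rose by 0.45 (SE 0.07), Slc22a5 by 0.31 (SE 0.08), Cpt1a by 0.27 (SE 0.07) and Crat by 0.19 (SE 0.07), all with some overlap between the sides. The highest adjusted p among these 4 was 0.02386, for Crat. Within batch 2, 6 of the 8 genes and 7102 of all 15791 genes were called, with 0.66 for Mlycd, 0.63 for Acacb and 0.56 for Cpt1b. Within batch 1, 4 of the 8 and 2112 of all 16109 genes were called, with 0.61 for Mlycd, 0.60 for Acacb and 0.54 for Cpt1b. The changes of Cpt2 were -0.22 in batch 2 and -0.14 in batch 1.

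Cpt2 fell by 0.18 on the log2 scale (SE 0.07, adjusted p = 0.03735), and this fall is thinly supported. With Acadvl Het, replicates 1 to 5 labelled Acadl KO held 403.7, 255.1, 312.5, 388.4 and 301.1 CPM (mean 332), and those labelled Acadl Het held 381 to 390 CPM (mean 387). With Acadvl wt, samples labelled Acadl KO held 348 to 377 CPM (mean 363) and those labelled Acadl Het 375 to 422 CPM (mean 401). The mean was lower with either Acadvl label, and the interaction, which tests whether the difference depends on that label, was -0.07 (SE 0.15, unadjusted p = 0.6245, adjusted p = 0.997 by edgeR). Of the 9 libraries labelled Acadl KO, 3, all with Acadvl Het, were at 312.5 CPM or less, and the other 6 at 348 CPM or more. Leaving out 1 library at a time ended the call in 11 of 24 cases, with log2 changes of -0.22 to -0.14 and adjusted p of 0.007675 to 0.1007. Leaving out every library above 10 CPM of Alb left Acadl Het / Acadvl wt alone as control, and Cpt2 was then -0.21 (adjusted p = 0.1131), and Crat was 0.23 (adjusted p = 0.05267). Acadl KO / Acadvl Het replicate 2 was the lowest of its 5 libraries not only for Cpt2 but for Cpt1b (1365 CPM), Slc25a20 (248.6 CPM), Crat (619.8 CPM) and Mlycd (324.8 CPM), and the highest for Cpt1a (120.1 CPM).

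In Acadl Het libraries, Acadvl KO against Acadvl wt gave calls for 4 of the 8 genes, and Cpt2 had the change of largest size. Cpt1b, Slc25a20 and Mlycd were higher in Acadl Het / Acadvl KO than in Acadl Het / Acadvl wt samples, 3 of 8 genes where 12.9% of all genes were higher. Cpt2 alone was lower, where 11.5% of all genes were lower. The median log2 change was 0.21 over the 8 genes and 0.02 over all genes tested. The same 4 genes separated the 2 genotypes without overlap, as did 11.7% of all genes upward and 11.7% downward. This comparison shares the Acadl Het / Acadvl wt libraries with the one before it.

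Cpt2 was at 255.6, 287.2, 285.6 and 300.7 CPM in Acadl Het / Acadvl KO samples and 421.9, 420.8, 387.5 and 374.8 CPM in Acadl Het / Acadvl wt samples. The highest Acadvl KO library lay well under the lowest Acadvl wt library. The log2 change was -0.51 (SE 0.1, adjusted p = 0.0009763), a level 0.70 times that of the control. Leaving out 1 library at a time kept it between -0.55 and -0.45 with an adjusted p of 0.005792 or less, and it was -0.61 within batch 2 (adjusted p = 0.01096) and -0.33 within batch 1 (adjusted p = 0.3466), where 1 Acadvl KO library stood against 2.

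Cpt1b was at 1490, 1586, 1273 and 1393 CPM in Acadl Het / Acadvl KO samples and 1159, 1103, 1164 and 1058 CPM in Acadl Het / Acadvl wt samples, a log2 rise of 0.35 (SE 0.09, adjusted p = 0.007172). Mlycd was at 309.4, 317.9, 263.3 and 300.9 CPM in Acadl Het / Acadvl KO samples and 223.8, 255.9, 249.9 and 228.1 CPM in Acadl Het / Acadvl wt samples, a log2 rise of 0.31 (SE 0.08, adjusted p = 0.01056). For both genes the Acadvl KO samples all lay above the controls. Within batch 2 the changes were 0.36 for Cpt1b (adjusted p = 0.1032) and 0.31 for Mlycd (adjusted p = 0.1134), and within batch 1 they were 0.34 (adjusted p = 0.2062) and 0.35 (adjusted p = 0.1852). With only the libraries of these 2 genotypes in the fit, Cpt1b and Cpt2 remained called and Mlycd was at 0.32 (adjusted p = 0.05455). Slc25a20 was at 262.2, 300.3, 293 and 279.3 CPM in Acadl Het / Acadvl KO samples and 243.2, 244.7, 234.6 and 218.1 CPM in Acadl Het / Acadvl wt samples. Its rise of 0.26 (SE 0.1, adjusted p = 0.04768) was just past the threshold and was lost in 8 of 24 fits that left out 1 library, with adjusted p of up to 0.1112. It was 0.23 within batch 2 (adjusted p = 0.2715) and 0.32 within batch 1 (adjusted p = 0.2213), and 0.25 without the libraries above 10 CPM of Alb (adjusted p = 0.1061).

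Acacb split into 2 pairs among the Acadl Het / Acadvl KO samples, at 1287, 1314, 911.5 and 930.4 CPM, against 829.4, 975.3, 932.8 and 909.1 CPM in Acadl Het / Acadvl wt samples. Replicates 1 and 2 were above all 4 controls and replicates 3 and 4 were among them. The log2 change was 0.27 (SE 0.11, adjusted p = 0.06854). Leaving out 1 library at a time gave a call in 5 of 24 cases, among them 0.36 (adjusted p = 0.01302) without Acadvl KO replicate 3 and 0.37 (adjusted p = 0.01726) without replicate 4. The change was 0.16 for Cpt1a (adjusted p = 0.2536), -0.07 for Crat (0.6399) and -0.03 for Slc22a5 (0.8537), and the values of these 3 genes overlapped between the genotypes.

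**Figure D3:**
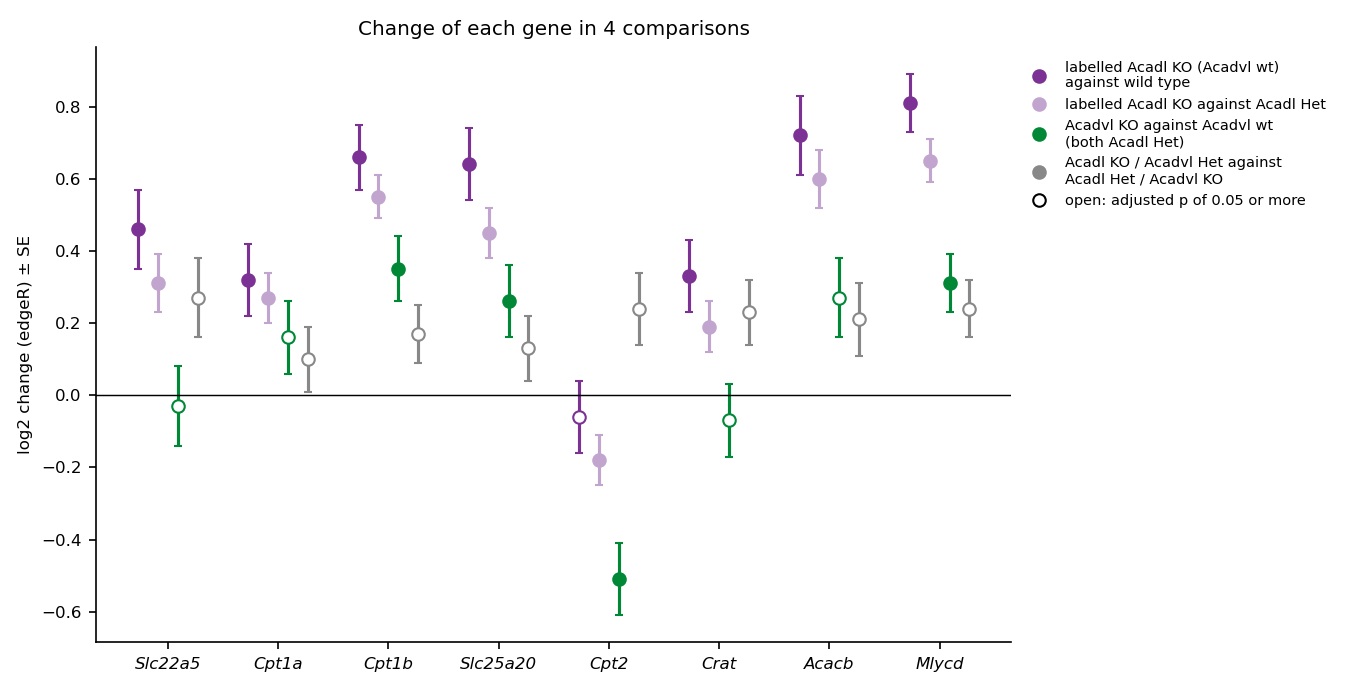
log2 change (y, with SE bars) of each gene (x) in 4 comparisons, filled where the edgeR adjusted p was under 0.05. The labelled Acadl KO changes lie above 0 for every gene but Cpt2, and Cpt2 in Acadvl KO, at -0.51, is the lowest point.

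The mirror genotypes, with 3 mutant alleles each, set Acadl KO / Acadvl Het directly against Acadl Het / Acadvl KO. No gene of the shuttle passed the threshold, where 8.77% of all 15804 genes tested did and 4500 had an unadjusted p under 0.05. Those 1386 calls over all genes moved in both directions with single libraries. They were 350 without Acadl Het / Acadvl KO replicate 4, 497 without its replicate 3 and 2007 without its replicate 1. They were 593 without Acadl KO / Acadvl Het replicate 5 and 890 without its replicate 1. DESeq2 called 1 of the 8, Mlycd (log2 0.24, adjusted p = 0.03713), and 2233 of all 15804 genes. The edgeR log2 changes ran from 0.10 for Cpt1a to 0.27 for Slc22a5 (SE 0.11, adjusted p = 0.1001), with a median of 0.22, against 0 over all genes. For Mlycd the 5 Acadl KO / Acadvl Het samples held 395.8, 324.8, 327.2, 352.8 and 351.6 CPM and the 4 Acadl Het / Acadvl KO samples 309.4, 317.9, 263.3 and 300.9 CPM. They did not overlap, as was so upward for 3.69% of all genes, and the log2 change was 0.24 (SE 0.08, adjusted p = 0.06139). Within batch 2 it was 0.24 and within batch 1 it was 0.21, neither past the threshold. Cpt2 had a log2 change of 0.24 (SE 0.1, adjusted p = 0.1114) and Crat 0.23 (SE 0.09, adjusted p = 0.106). Without Acadl KO / Acadvl Het replicate 2, Cpt2 at 0.31 (adjusted p = 0.02169), Crat at 0.30 (adjusted p = 0.02403) and Mlycd at 0.26 (adjusted p = 0.04718) were called higher. That fit called 1274 of all 15787 genes in either direction.

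Neither comparison of a heterozygous label with wt, 1 for Acadl and 1 for Acadvl, gave a call among the 8 genes. Against wild type, Acadl Het / Acadvl wt samples had log2 changes of 0.02 for Cpt1a and Mlycd to 0.11 for Slc22a5 (SE 0.11), with a median of 0.05, and edgeR called 0 of the 8 genes. It called 0% of all genes tested, although 541 had an unadjusted p under 0.05, and DESeq2 called 1 gene, none of the 8. Acadvl Het against Acadvl wt, averaged over Acadl KO and Acadl Het, gave -0.12 for Acacb (SE 0.08) to -0.01 for Cpt1a, and edgeR and DESeq2 called 0 of the 8 genes. There edgeR called 0.0127% of all genes, 1 of which was Acadvl itself, and 697 had an unadjusted p under 0.05. The interaction, which tests whether the labelled Acadl KO difference is another size with Acadvl Het than with Acadvl wt, was negative for all 8 genes and called for 0. In edgeR it was called for 0% of all genes, with 817 at an unadjusted p under 0.05, and in DESeq2 for 100 genes, none of the 8. In 6 of 24 fits that left out 1 library it was called for 12 to 92 genes, most without Acadl Het / Acadvl Het replicate 2, and again for none of the 8. Mlycd was the closest, at -0.28 (SE 0.12, unadjusted p = 0.02808, adjusted p = 0.8579).

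Ordered by genotype mean, Cpt1b, Slc25a20 and Mlycd shared the same sequence. Acadl KO / Acadvl wt came first, then Acadl KO / Acadvl Het, Acadl Het / Acadvl KO, Acadl Het / Acadvl Het, Acadl Het / Acadvl wt and wild type. Mlycd means were 416, 350, 298, 247, 239 and 236 CPM in that order. For Mlycd the libraries of Acadl KO / Acadvl Het and Acadl Het / Acadvl KO did not overlap, nor did those of Acadl Het / Acadvl KO and Acadl Het / Acadvl Het. For Cpt1b and Slc25a20 a gap without overlap appeared only between Acadl Het / Acadvl KO and Acadl Het / Acadvl Het. All other neighbours overlapped. Between Acadl KO / Acadvl Het and Acadl Het / Acadvl KO, 3.69% of all genes separated upward. The share of all genes that separated Acadl Het / Acadvl KO from Acadl Het / Acadvl Het was not counted. These gaps are therefore only descriptions. Cpt1a had the same order, with all neighbours overlapping, at 114, 112, 104, 94.6, 93.5 and 92.4 CPM. Acacb differed only below the third place, where Acadl Het / Acadvl wt and Acadl Het / Acadvl Het, which overlapped, changed places. Cpt2 had another order, with Acadl Het / Acadvl wt highest at 401 ± 23.8 CPM (SD, n = 4), then Acadl Het / Acadvl Het at 387, wild type at 378, Acadl KO / Acadvl wt at 363, Acadl KO / Acadvl Het at 332 and Acadl Het / Acadvl KO lowest at 282 ± 19 CPM (SD, n = 4). Each neighbouring pair in the Cpt2 order overlapped. Crat was lowest in Acadl Het / Acadvl KO and wild-type samples, at 665 ± 30.2 and 670 ± 37.4 CPM (SD, n = 4 each).

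Cpt1b and Cpt2 encode the first and last enzymes of the shuttle. The ratio of Cpt1b to Cpt2 per length was 3.87 ± 0.345 in Acadl KO / Acadvl wt samples (SD, n = 4), 3.99 ± 0.388 in Acadl KO / Acadvl Het samples (n = 5) and 4.15 ± 0.542 in Acadl Het / Acadvl KO samples (n = 4). It was 2.43 ± 0.13 in Acadl Het / Acadvl Het samples (n = 3), 2.27 ± 0.13 in Acadl Het / Acadvl wt samples (n = 4) and 2.34 ± 0.0199 in wild type (n = 4). The 13 libraries with a homozygous mutant label ran from 3.38 to 4.73 and the 11 others from 2.13 to 2.55. Cpt1b alone split the same libraries, at 1273 CPM or more and 1219 CPM or less, so the split is not particular to the ratio. Mlycd alone split them too, at 263.3 CPM or more and 255.9 CPM or less. The share of all genes that split this way was not counted. The pair Acacb and Mlycd behaved otherwise: their ratio per length had genotype means of 0.879 to 0.943, and single libraries of all genotypes overlapped. Against its cytosolic relative Acaca, Acacb stood at 46.6 ± 6.86 per length in Acadl KO / Acadvl wt samples and 35.1 ± 1.15 in wild type (SD, n = 4 each). These ratios are given as descriptions, with no test.

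**Figure D4:**
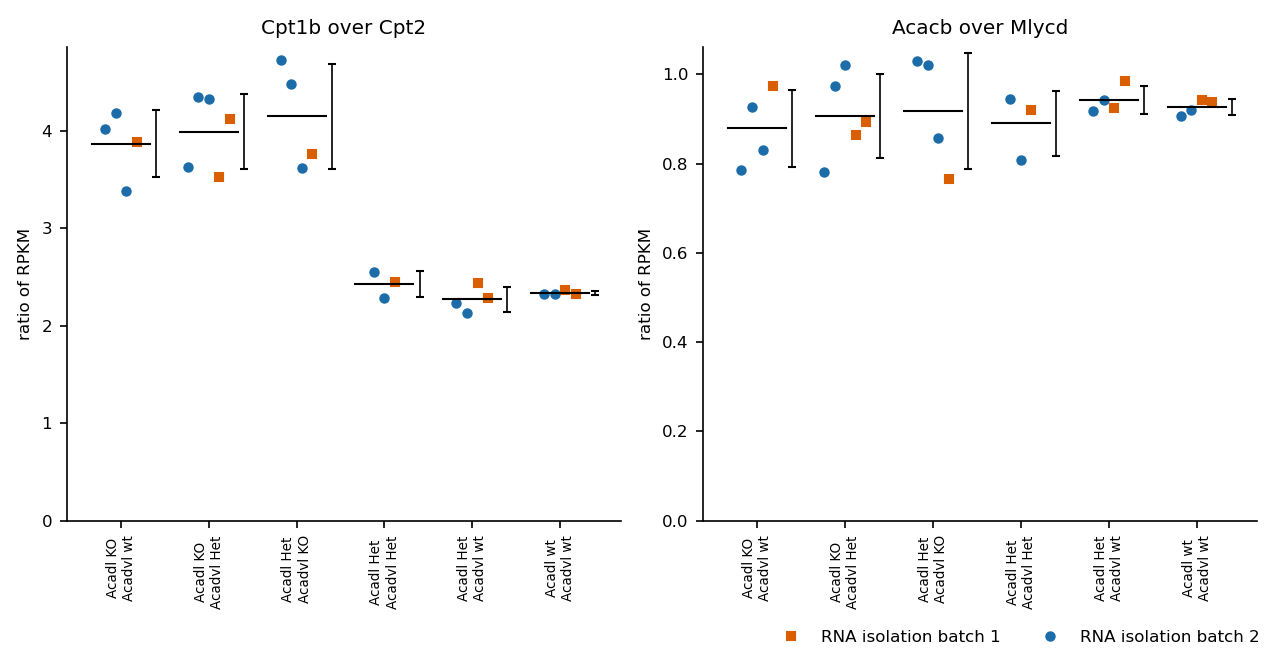
Ratio of RPKM (y, from 0) of Cpt1b to Cpt2 (left) and Acacb to Mlycd (right) in each library, by genotype (x), with a line at the mean and a bar of 1 SD. Cpt1b over Cpt2 is 3.38 or more in every library labelled KO for either gene and 2.55 or less in all others, and Acacb over Mlycd lies between 0.765 and 1.03 in all.

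Over the 24 libraries the log2 CPM of Cpt1b ran closely with that of Mlycd (Pearson r = 0.95), Slc25a20 (0.93) and Acacb (0.92). That of Cpt2 had r of -0.35 to 0.39 with the 7 others, highest with Crat. Among genes outside the set with a mean of at least 1 CPM, the profile most like Cpt1b, after its read-through entry (1.00), was that of Adck1 (0.979). Mlycd was most like Dus2 (0.963) and Wbp11 (0.958), Slc25a20 like Ttc19 (0.961) and Supv3l1 (0.960), and Acacb like Ubac1 (0.961) and Abcf3 (0.957). Cpt2 was most like Fbp2 (0.893) and Aldh4a1 (0.888), and Crat like Apbb1 (0.933) and Cdk16 (0.926). Cpt1a, with Tfrc (0.841) and Tmem86a (0.839), and Slc22a5, with Abcd3 (0.857) and Zfp629 (0.843), had looser matches. These r values are over 24 libraries that share their genotypes, batches and scaling, and are a description.

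Other genes of the same pathways were counted in lists, some of which share genes. Beside these counts stand all genes, of which 19.6% were higher and 17.6% lower in labelled Acadl KO against wild type (median -0.02), and 12.9% higher and 11.5% lower in Acadvl KO (median 0.02). For carnitine synthesis and transport, 7 of 10 genes were tested, since Slc6a14, Bbox1 and Tmlhe were too low. In labelled Acadl KO against wild type, 2 of the 7 were higher and 0 lower, with a list median of -0.07: Slc22a4, a relative of Slc22a5, at 0.65 (SE 0.2, adjusted p = 0.01609) and Aldh9a1, a dehydrogenase of carnitine synthesis, at 0.28. In Acadvl KO 1 of the 7 was higher, a share near that of all genes, with Slc22a4 at 0.84 (SE 0.2, adjusted p = 0.004436), and the median was 0.04. Of the fatty acid uptake and acyl-CoA synthesis genes, which work upstream of the shuttle, 4 of 10 were higher and 0 lower in labelled Acadl KO against wild type, with a median of 0.32. They were the fatty acid binding protein Fabp3 (0.75), the transporter Slc27a4 (0.53), the acyl-CoA synthetase Acsl1 (0.50) and the fatty acid translocase Cd36 (0.49). In Acadvl KO, Slc27a4 (0.38) and Fabp3 (0.33) were higher, 0 were lower and the median was -0.03.

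Of 13 further genes of malonyl-CoA and AMPK, the kinase that inhibits acetyl-CoA carboxylase, 4 were higher and 3 lower in labelled Acadl KO against wild type, with a median of 0.06, where 19.6% of all genes were higher and 17.6% lower. Acaca, the cytosolic carboxylase, was at 0.35 (SE 0.13) and Prkaa2, a catalytic subunit of AMPK, at 0.33 (SE 0.08), while Fasn, which uses malonyl-CoA to build fatty acids, was at -0.57 (SE 0.13) and Mid1ip1, which aids acetyl-CoA carboxylase, at -0.97 (SE 0.25). In Acadvl KO 1 was higher and 3 lower, with a median of -0.03: Prkab2 was at 0.29, Prkaa1 at -0.28, Fasn at -0.55 and Mid1ip1 at -0.91.

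Downstream of the shuttle, of 18 mitochondrial beta-oxidation enzymes, 4 were higher and 2 lower in labelled Acadl KO against wild type, with a median of 0.04, shares near those of all genes (19.6% and 17.6%). The largest changes were in Acad12 (-0.61), Etfdh (0.44), which passes electrons from the dehydrogenases to ubiquinone, Acad10 (-0.40) and Eci1 (0.34). In Acadvl KO, 0 of 18 were higher and 9 lower, with a median of -0.24. Among them Acad12 was at -0.75 (SE 0.1, adjusted p = 1.433e-05), Acad10 at -0.57, the medium-chain enzyme Acadm at -0.46 (SE 0.08, adjusted p = 0.000349) and the thiolase Acaa2 at -0.37. Cpt2, at -0.51, thus lay within the range of the called beta-oxidation enzymes in that comparison. With only the libraries of the 2 genotypes in the fit, 5 of the 18 were called, as were 1984 of all 15063 genes in either direction. The full fit called 3853 of 15804.

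PPAR-alpha, a fatty acid sensor, and the factors PGC-1 and ERR are known regulators of fatty acid oxidation genes. Of 15 PPAR-alpha targets outside the shuttle, 11 were higher and 0 lower in labelled Acadl KO against wild type, with a median of 0.80. Ehhadh was at 1.79, Acot1 at 1.64, Plin2 at 1.58 and Plin5 at 1.52, so these changes were larger than those of the 8 shuttle genes. In Acadvl KO 7 were higher and 2 lower, with a median of 0.23, and Ehhadh was at 1.15 and Plin5 at 1.00. The 2 lower included Acadm, given above among the beta-oxidation enzymes, since it is in both lists. Of 11 PPAR, PGC-1 and ERR regulators, 8 were higher and 0 lower in labelled Acadl KO against wild type, with a median of 0.62, led by Ppargc1a (1.49), Pparg (1.04), Esrra (0.83) and Ppara (0.70). In Acadvl KO, Esrra (0.53), Nrip1 (0.43) and Esrrb (0.30) were higher, 0 were lower and the median was 0.28.

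**Figure D5:**
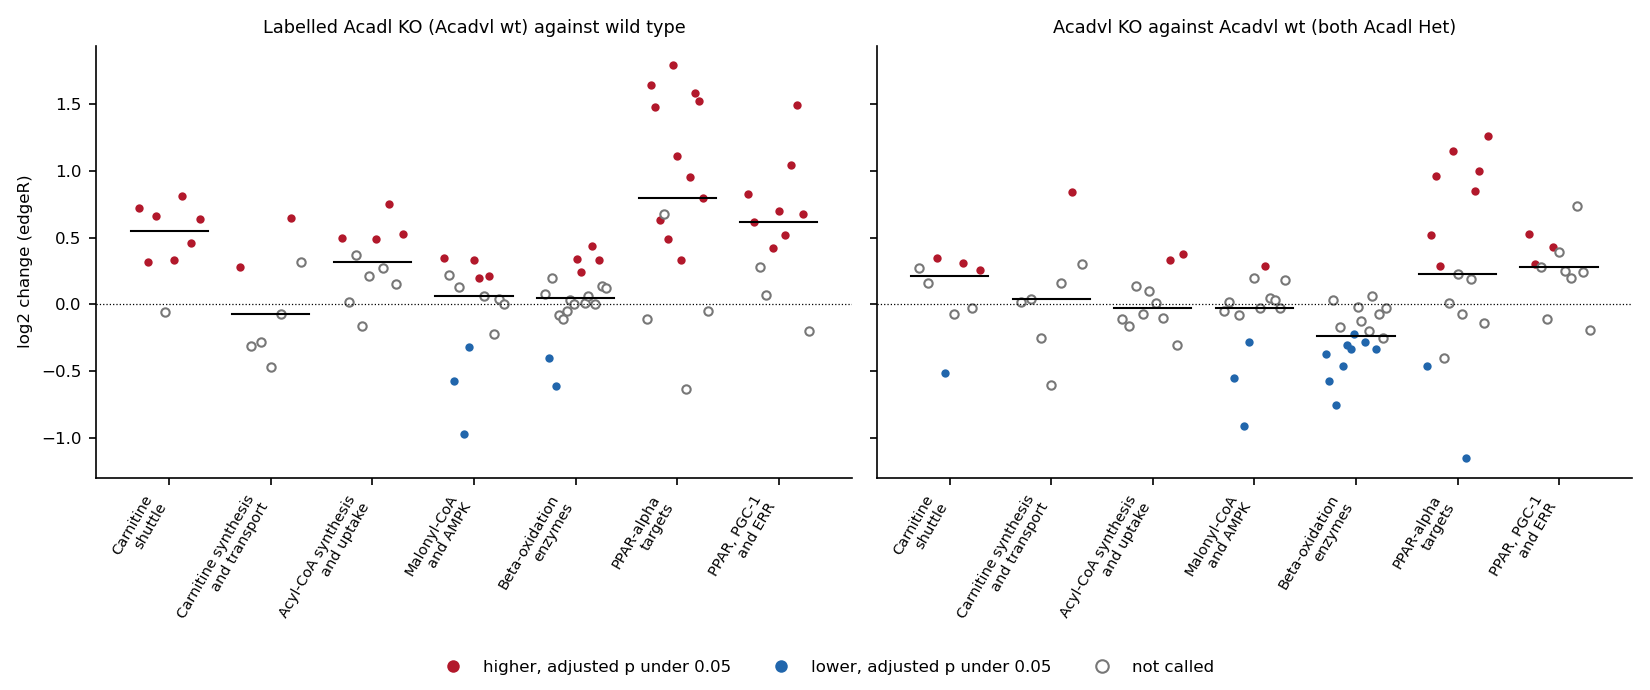
log2 change (y) of the 8 shuttle genes and of the tested genes of 6 related lists (x) in labelled Acadl KO against wild type (left) and in Acadvl KO against Acadvl wt (right), 1 point per gene, coloured by call, with a line at each median. The beta-oxidation median is 0.04 on the left and -0.24 on the right, and the PPAR-alpha targets reach 1.79, for Ehhadh, on the left.

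Several marker lists moved with the genotypes, and their part in these results was not tested. Of the 12 cardiomyocyte markers, 1 was higher and 3 lower in Acadvl KO, with a median of -0.16. There 12.9% of all genes were higher and 11.5% lower. In the mirror comparison 2 of the 12 were higher and 0 lower, with a median of 0.17. That comparison called 8.77% of all genes in either direction. In labelled Acadl KO against wild type 0 were higher and 2 lower, with a median of -0.02. Of all genes, 19.6% were higher and 17.6% lower there. The 9 adipocyte markers summed to 272 to 328 CPM in Acadl KO / Acadvl wt samples and 140 to 189 CPM in wild type, and to 219 to 279 CPM in Acadl Het / Acadvl KO and 136 to 187 CPM in Acadl Het / Acadvl wt samples. Nearly all of this was Adipor2, at 267 to 324 CPM in Acadl KO / Acadvl wt samples and 138 to 184 CPM in wild type, while the defining Adipoq stayed at 0 to 1.02 CPM in every library. The 8 endothelial markers summed to 2156 to 3266 CPM in Acadl KO / Acadvl wt samples and 1853 to 2045 CPM in wild type. Of these 8 genes Fabp4, itself in the PPAR-alpha list, was the 1 called higher, at 1067 to 1972 CPM in Acadl KO / Acadvl wt samples and 638 to 790 CPM in wild type. The endothelial gene Cdh5 was at 240 to 344 and 311 to 338 CPM in the same 2 groups. The 10 skeletal muscle markers summed to 754 to 952 CPM in Acadl Het / Acadvl KO and 119 to 527 CPM in Acadl Het / Acadvl wt samples. Acta1 made up 750 to 948 CPM of the sum in Acadvl KO samples, and the defining Myh1, Myh2 and Myh4 were each at most 0.441 CPM in both groups. The 9 macrophage and leukocyte markers summed to 252 to 484 CPM in Acadl Het / Acadvl KO and 226 to 267 CPM in Acadl Het / Acadvl wt samples. In the comparison of all libraries labelled Acadl KO with those labelled Acadl Het, 9 of 15 hepatocyte markers were lower. Of all genes, 27.9% were lower there. All 3 Acadl Het / Acadvl Het libraries were among those high in Alb. In the mirror comparison 5 of 9 macrophage and leukocyte markers were lower in Acadl KO / Acadvl Het, where 8.77% of all genes were called in either direction. The 15 hepatocyte markers summed to 58.7 to 204 CPM in Acadl KO / Acadvl wt samples and 53.3 to 72.4 CPM in wild type. In all libraries labelled Acadl KO against Acadl Het, 4 of 8 fibroblast markers were lower and 0 higher, with a median of -0.27. Of all genes, 27.9% were lower and 26.7% higher in that comparison. The sums of the 8 fibroblast markers (816 to 1067 CPM in Acadl KO / Acadvl wt, 890 to 1055 CPM in wild type) and the 6 erythroid markers (1560 to 3876 CPM in Acadl KO / Acadvl wt, 1329 to 1815 CPM in wild type) overlapped.

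Promoter sequences were read for the genes that rose together and for Cpt2, which did not, to show whether they share a known element in the 250 bases before and 50 after the gene start. The RefSeq table for GRCm38.p6 held 6 of the 8 genes, without Cpt1b and Crat. The gene start used is that of this table. For Slc25a20 and Mlycd it lay further along the gene than the start in the mm10 coordinates given above. Shown are Acacb (chr5:114165268-114165567, plus strand), Mlycd (chr8:119394644-119394943, plus), Slc25a20 (chr9:108661886-108662185, plus), Cpt1a (chr19:3323051-3323350, plus), Slc22a5 (chr11:53891654-53891953, minus) and Cpt2 (chr4:107923540-107923839, minus), each 5′ to 3′ along the gene. Capitals mark the nuclear receptor half-site AGGTCA on either strand.
Acacb: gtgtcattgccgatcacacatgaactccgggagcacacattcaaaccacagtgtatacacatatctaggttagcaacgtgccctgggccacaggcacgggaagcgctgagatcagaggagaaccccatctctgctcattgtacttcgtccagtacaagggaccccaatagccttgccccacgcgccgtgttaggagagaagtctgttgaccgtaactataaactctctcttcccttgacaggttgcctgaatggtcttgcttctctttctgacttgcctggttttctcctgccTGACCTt
Mlycd: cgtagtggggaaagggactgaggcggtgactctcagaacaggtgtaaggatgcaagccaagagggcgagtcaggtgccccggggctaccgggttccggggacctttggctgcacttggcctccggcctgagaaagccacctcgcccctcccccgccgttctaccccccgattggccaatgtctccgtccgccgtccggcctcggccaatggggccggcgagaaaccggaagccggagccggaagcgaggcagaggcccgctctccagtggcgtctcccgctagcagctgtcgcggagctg
Slc25a20: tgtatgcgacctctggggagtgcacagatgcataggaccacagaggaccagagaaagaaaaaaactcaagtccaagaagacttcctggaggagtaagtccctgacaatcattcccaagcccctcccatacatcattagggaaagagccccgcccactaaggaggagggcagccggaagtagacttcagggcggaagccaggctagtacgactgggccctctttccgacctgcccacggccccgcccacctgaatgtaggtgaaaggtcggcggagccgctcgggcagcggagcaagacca
Cpt1a: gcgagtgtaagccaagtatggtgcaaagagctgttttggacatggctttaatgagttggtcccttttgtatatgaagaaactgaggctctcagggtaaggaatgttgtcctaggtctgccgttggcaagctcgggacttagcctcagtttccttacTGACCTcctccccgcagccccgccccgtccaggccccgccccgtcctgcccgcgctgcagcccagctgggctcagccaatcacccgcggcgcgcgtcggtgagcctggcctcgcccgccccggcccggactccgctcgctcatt
Slc22a5: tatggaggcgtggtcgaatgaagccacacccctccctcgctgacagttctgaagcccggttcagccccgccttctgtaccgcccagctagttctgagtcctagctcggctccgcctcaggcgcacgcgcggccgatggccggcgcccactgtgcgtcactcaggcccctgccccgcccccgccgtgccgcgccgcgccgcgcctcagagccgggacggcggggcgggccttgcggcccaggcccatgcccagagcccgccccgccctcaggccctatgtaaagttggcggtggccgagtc
Cpt2: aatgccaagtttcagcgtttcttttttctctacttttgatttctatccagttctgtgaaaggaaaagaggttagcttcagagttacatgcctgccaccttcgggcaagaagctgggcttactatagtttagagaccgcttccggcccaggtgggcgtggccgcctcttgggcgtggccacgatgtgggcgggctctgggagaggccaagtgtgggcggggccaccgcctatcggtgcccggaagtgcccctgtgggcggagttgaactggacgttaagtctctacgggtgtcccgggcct

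The half-site lay in 2 of the 6 promoters, those of Cpt1a, beginning at position -94 from the gene start, and Acacb, at position 44, both on the reverse strand. It lay in 16.3% of all 32851 promoters of that length. The longer estrogen-related receptor site TNAAGGTCA, which contains the half-site, lay in 0 of the 6 and 1.28% of all promoters. A direct repeat of 2 half-sites with 1 base between them, the form that PPAR binds with RXR, lay in 0 of the 6 and 0.381% of all. The C/EBP-ATF element TGATGNAA lay in 0 of the 6 and 3.97% of all. The GC content was 72.7% for Slc22a5, 68% for Mlycd, 62.3% for Cpt1a, 58% for Slc25a20, 57.3% for Cpt2 and 51.7% for Acacb, and 52.7% in the median promoter. These matches describe letters in this window only.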

How the data were processed

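The 24 deposited files hold raw read counts per gene, which the authors made with featureCounts 1.5.2 on exons of UCSC mm10 genes, per the file headers. Primary alignments were counted without strand, and reads over more than 1 gene went to each of them. STAR 2.5.1b, featureCounts 1.5.3, mm10 and GRCm38 are named in the submitters' processing notes. Libraries were polyA-selected single-end reads, per the labels' protocols. The fit took all 24 libraries in edgeR 4.0.16 (R 4.3.3) with the quasi-likelihood test, genotype and RNA isolation batch as terms, TMM scaling and filterByExpr by genotype. P-values were adjusted by Benjamini-Hochberg over all 15804 genes, and a call is an adjusted p under 0.05. SE is the log2 change over the square root of F. CPM uses TMM library sizes, and RPKM is CPM per 1000 counted bases. The fit was tested on simulated data with 200 changed genes. Of 1.5-fold changes it recovered 27% for the interaction and 86% for all labelled Acadl KO against Acadl Het. It recovered 59% for Acadvl KO, 61% for Acadl Het / Acadvl wt against wild type and 81% for Acadvl Het. A lack of calls, above all in the interaction, may therefore miss changes of that size. DESeq2 1.42.0, other scalings, filters and fits, each batch alone and leaving out each library were tried. Replicate numbers follow the order of samples and pair nothing. The 8 genes and all lists were chosen with earlier results of these data known. Named besides them are Acadl, Acadvl, up to 4 called genes of largest change per list and comparison, the 2 most alike profiles per gene, and marker genes. No 2 libraries of 1 genotype agreed within counting noise.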

Additional observations from a re-analysis of the deposited data

Results flagged for a closer look

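Of 40 sets of 4 or 5 libraries (a gene in a genotype), 2 held a library that stood far from the others, where chance gives about 1 in 20, or 5%. Crat in Acadl Het / Acadvl KO replicate 2 was the highest of 4 at 710 CPM, and the next library was at 656 CPM. Slc22a5 in Acadl KO / Acadvl Het replicate 5 was the highest of 5 at 54.7 CPM, and the next was at 48.6 CPM. Neither gene was called in the mirror comparison of these genotypes.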

How the results depend on the processing

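Of 1776 values recomputed under 32 other settings, 1687 kept direction and side of the threshold, 50 lost a call, 10 gained one and 29 changed sign. No paired analysis was possible because the labels give no replicate numbers and those used here only follow sample order. In batch 1 alone, 1 of the 8 genes was called in Acadl KO / Acadvl wt against wild type, 4 in labelled Acadl KO against Acadl Het and 0 in Acadvl KO against Acadvl wt, which had 1 call in batch 2 alone and 2 with only those genotypes fitted. These settings use fewer samples. DESeq2 called 1 of the 8 genes in the mirror comparison, beside 2233 of all 15804 (cause not tested). Leaving out 1 library gave 6 to 7, 7 to 8, 3 to 5 and 0 to 3 calls among the 8 genes in these comparisons in that order, and 0 in the others. Over all genes, the same fits gave 4642 to 6070, 7848 to 8757, 2774 to 3988 and 350 to 2007 calls. All changes of sign were in values without a call. In batch 1 alone Crat was 0.02 in Acadvl KO, Cpt1a -0.01 in the mirror comparison, and Slc25a20 0.06 and Crat 0.10 in Acadvl Het. In Acadl Het / Acadvl wt against wild type, Cpt1a was -0.01, Crat -0.05 and Mlycd -0.01. The interaction was 0.06 for Cpt1a, 0.05 for Slc25a20 and 0.31 for Slc22a5. In batch 2 alone Slc22a5 was 0.04 in Acadvl KO and Cpt1a 0 in Acadvl Het. Leaving out 1 library gave -0.12 to 0.07 for Slc22a5 in Acadvl KO. In Acadvl Het it gave -0.06 to 0.04 for Cpt1a and -0.06 to 0.01 for Crat. Against wild type, Acadl Het / Acadvl wt gave -0.07 to 0.13 for Cpt1a and -0.01 to 0.06 for Mlycd. The interaction ran from -0.17 to 0.03 for Cpt2 and from -0.14 to 0.03 for Cpt1a. Over all genes in batch 1 alone, edgeR called 86 in Acadl KO / Acadvl wt against wild type (5874 in the full fit), 2112 in labelled Acadl KO against Acadl Het (8639), 208 in Acadvl KO (3853), 122 in the mirror comparison (1386) and 0 in Acadvl Het (2). In batch 2 alone it called 2631 of 15791 in Acadvl KO, 20 in the mirror comparison and 0 in Acadvl Het. With only the genotypes compared, it called 1984 in Acadvl KO and 30 in the mirror comparison. Without the libraries above 10 CPM of Alb, a setting chosen after seeing the data, it called 3871 in Acadl KO / Acadvl wt against wild type. DESeq2 called 2233 in the mirror comparison, 9 in Acadvl Het, 1 in Acadl Het / Acadvl wt and 100 in the interaction (0 in edgeR), which had 45 without the batch term. Counts over the gene lists moved by more than 1.5 times in 86 of 1332 cases.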
